A study of Mus musculus with 6 samples.

Results

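The annexins are proteins that bind acidic phospholipids of membranes when calcium rises, and several of them work in pairs with small calcium-binding S100 proteins. Described here are 8 annexin genes (Anxa1, Anxa2, Anxa3, Anxa4, Anxa5, Anxa6, Anxa7 and Anxa11) and the S100 partner genes S100a10 and S100a11, taken by symbol from a named list, in livers of mice with and without a deficiency of Mettl3, the enzyme that writes N6-methyladenosine (m6A) on RNA. All 10 were among the 27179 genes of the files and all 10 passed the filter on low counts. RNA-seq counts came from livers of C57BL/6 mice, 3 wild type and 3 Mettl3-deficient, with 31960205 to 36025772 counts per library. The sources used here do not say how or in which cells Mettl3 was made deficient, nor the age or sex of the mice. The labels number the livers as replicates without naming separate animals, so each p-value reflects only the variation among these 6 samples, which may in part be technical. The list was drawn up with results of this same genotype contrast in view, so the fold changes and calls of the 10 genes are a description and not independent evidence.

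In an annexin the conserved core docks on the membrane and the variable N-terminal tail recruits partners. Annexin A2 and S100A10 form a heterotetramer that links membranes to actin and, at the cell surface, binds plasminogen and its activators; S100A10 is unusual among S100 proteins in that it does not bind calcium. Annexin A1 binds S100A11, annexins A7 and A11 bind penta-EF-hand proteins, and annexin A5 coats membranes that expose phosphatidylserine. In healthy liver, annexins A1 and A2 are known more from duct, endothelial and blood-derived cells than from hepatocytes, and annexin A2 is known to appear in hepatocytes in regeneration and cancer.

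Mettl3 itself stood at 13.4, 14.3 and 12.1 CPM (counts scaled to a common library size, here with TMM factors for composition) in the wild-type libraries and at 5.96, 6.60 and 4.94 CPM in the Mettl3-deficient ones. Wild type replicate 1 stood apart from the other wild-type libraries, with a chi-square per degree of freedom of 288 and 282 against them where they differed from each other by 16.2. The Mettl3-deficient libraries also differed widely, by 122 (replicates 1 and 2), 85 (1 and 3) and 231 (2 and 3). Transcripts of the Y chromosome were found at 4757 counts or more in 3 libraries, wild type replicate 1 plus Mettl3-deficient replicates 1 and 2, and at 11 counts or fewer in the others. Results that turn on wild type replicate 1 are given below with and without it.

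Promoter windows of 4 members are shown. Anxa2, S100a11 and Anxa5 had the 3 largest fold changes of the list. Anxa1, the partner of S100a11, was taken as a gene whose difference was not called (edgeR adjusted p = 0.772). Each window is the 250 bases upstream of the RefSeq start (RefSeq, build GRCm38.p6, equal to mm10), written 5′ to 3′ on the gene's strand. The windows are chr9:69453433-69453682 (plus strand) for Anxa2, chr3:93520246-93520495 (plus) for S100a11, chr3:36475888-36476137 (minus) for Anxa5 and chr19:20390672-20390921 (minus) for Anxa1. Capitals mark matches, on either strand, to any of 7 motifs searched.
Anxa2: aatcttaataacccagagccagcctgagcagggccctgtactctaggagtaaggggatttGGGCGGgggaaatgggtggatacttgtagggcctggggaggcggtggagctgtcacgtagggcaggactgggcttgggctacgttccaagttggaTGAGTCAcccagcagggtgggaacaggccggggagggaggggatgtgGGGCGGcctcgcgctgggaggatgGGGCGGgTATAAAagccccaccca
S100a11: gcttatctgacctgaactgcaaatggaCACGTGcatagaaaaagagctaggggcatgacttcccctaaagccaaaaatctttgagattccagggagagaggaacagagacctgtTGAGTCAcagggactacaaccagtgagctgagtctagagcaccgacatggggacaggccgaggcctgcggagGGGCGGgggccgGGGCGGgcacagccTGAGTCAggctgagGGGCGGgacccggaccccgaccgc
Anxa5: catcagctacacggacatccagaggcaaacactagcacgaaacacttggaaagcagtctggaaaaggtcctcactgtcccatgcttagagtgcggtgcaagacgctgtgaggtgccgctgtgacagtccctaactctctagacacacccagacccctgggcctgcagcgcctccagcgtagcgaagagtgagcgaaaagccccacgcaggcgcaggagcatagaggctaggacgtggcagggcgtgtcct
Anxa1: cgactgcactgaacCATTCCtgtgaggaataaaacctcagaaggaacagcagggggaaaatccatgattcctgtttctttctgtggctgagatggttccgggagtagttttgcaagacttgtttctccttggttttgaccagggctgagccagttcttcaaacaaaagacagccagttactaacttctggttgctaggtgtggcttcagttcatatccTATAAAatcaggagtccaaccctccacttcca

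The motif of AP-1 (TGANTCA) was found 1 time in the Anxa2 window and 2 times in that of S100a11, and 6.75% of 32851 windows of that length held it. Both windows held 3 GC boxes (GGGCGG), a motif present in 32.7% of all windows. A TATA box (TATAAA, 12.4% of windows) was found in the windows of Anxa2 and Anxa1, and the E-box CACGTG (6.02%) in that of S100a11. The TEAD motif GGAATG (12.6%) was found in the Anxa1 window. The window of Anxa5 held none of the 7 motifs, which also included the CCAAT box (33.8% of windows) and the antioxidant response motif TGACNNNGC (10.2%). No matches overlapped each other in these 4 windows. The table held windows for 7 of the 10 genes, and Anxa3, Anxa6 and S100a10 are named only. Of the windows not shown, all of genes not called, 1 of Anxa7 held 4 GC boxes and an E-box. Another of Anxa7, which overlaps it, held 1 GC box, and that of Anxa11 held 3. In 1 window of Anxa4 the antioxidant response motif was found. A match is a run of letters and not a binding site, and AP-1 or other factor binding was not measured here.

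Of the 10 genes, 4 had an adjusted p under 0.05 over all 14380 genes tested, all of them higher in Mettl3-deficient livers. These were Anxa2, S100a11, Anxa5 and Anxa3. Over all genes tested, 23.8% were called in either direction and 13.3% were called higher. The groups did not overlap, with the Mettl3-deficient libraries higher, for 6 of the 10 (the 4 called genes, Anxa4 and Anxa7), against 23.9% of all genes tested. The median log2 fold change of the 10 was 0.43, beside 0.01 over all genes tested. No cell type was separated in these libraries, so more cells of a type and more RNA per cell cannot be told apart for any value below.

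**Figure D1:**
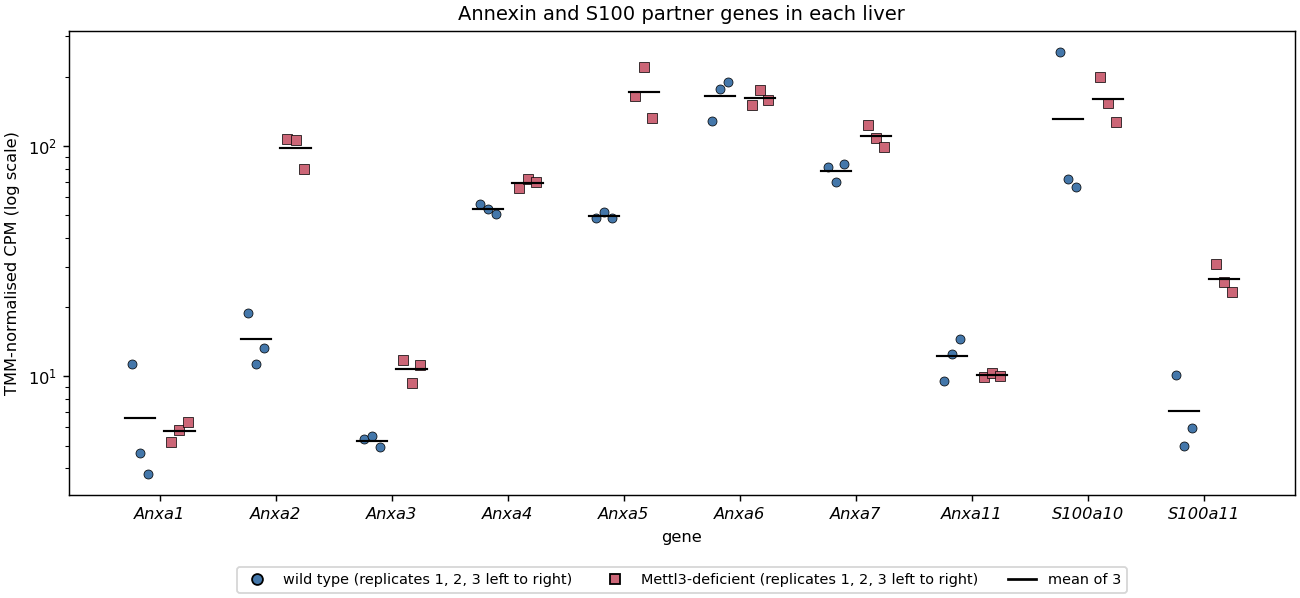
TMM-normalised CPM on a log axis of each of the 10 genes in each library, wild type as circles and Mettl3-deficient as squares, with replicates in order from left to right and a line at each mean of 3. Anxa2, Anxa3, Anxa5 and S100a11 are separated by genotype, while the first wild-type circle of S100a10, at 256 CPM, lies above every other S100a10 value.

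Anxa2 (Entrez 12306, chromosome 9, 69453683 to 69491792, GRCm38) encodes the membrane-binding subunit of the annexin A2 and S100A10 complex. Its level was 18.9, 11.3 and 13.2 CPM in the wild-type libraries and 107.2, 106.7 and 79.8 CPM in the Mettl3-deficient libraries. Every Mettl3-deficient library lay far above every wild-type one, and the means were 14.5 ± 3.96 and 97.9 ± 15.6 CPM (SD, n = 3). The log2 fold change was 2.76 ± 0.24 (SE), a 6.75-fold difference, and it ranged from 2.60 to 3.23 over 16 alternative analyses, with the call kept in each.

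S100a10 (Entrez 20194, chromosome 3, 93555117 to 93564645), the gene of the S100 partner, did not follow Anxa2. It stood at 256, 71.9 and 66.6 CPM in the wild-type libraries and at 201, 154 and 128 CPM in the Mettl3-deficient ones. Wild type replicate 1 held the highest value of all 6, so the groups overlapped, while the other wild-type libraries were the lowest. The log2 fold change was 0.29 ± 0.52 (SE) and was not called. Without wild type replicate 1 it was 1.21 and called, and 5 of the 10 genes were then called (23.8% of all genes tested in that fit). Without wild type replicate 2 or 3 it was -0.01 and -0.03.

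Wild type replicate 1 was also the highest wild-type library for Anxa2, Anxa1 and S100a11, by a smaller margin. Among the libraries with Y-linked transcripts, S100a10 was 256 CPM in the wild-type library and 201 and 154 CPM in the Mettl3-deficient libraries. Among those without, it was 71.9 and 66.6 CPM in wild type and 128 CPM in the Mettl3-deficient library. The direction therefore differed between these strata for S100a10, each of which holds 1 library of one genotype, and the difference was not tested. For Anxa2 the direction was the same in both, with 18.9 CPM against 107.2 and 106.7 CPM, and 11.3 and 13.2 CPM against 79.8 CPM.

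The balance of the pair differed between the genotypes. Per kilobase of exon, S100a10 stood at 24.4, 11.5 and 9.08 times the level of Anxa2 in the wild-type libraries and at 3.38, 2.60 and 2.88 times in the Mettl3-deficient ones. The ratios did not overlap, also with wild type replicate 1 left aside, and their means were 14.98 ± 8.24 and 2.95 ± 0.391 (SD, n = 3). S100a10 transcripts thus exceeded Anxa2 transcripts per kilobase in all 6 libraries. Protein levels were not measured.

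**Figure D2:**
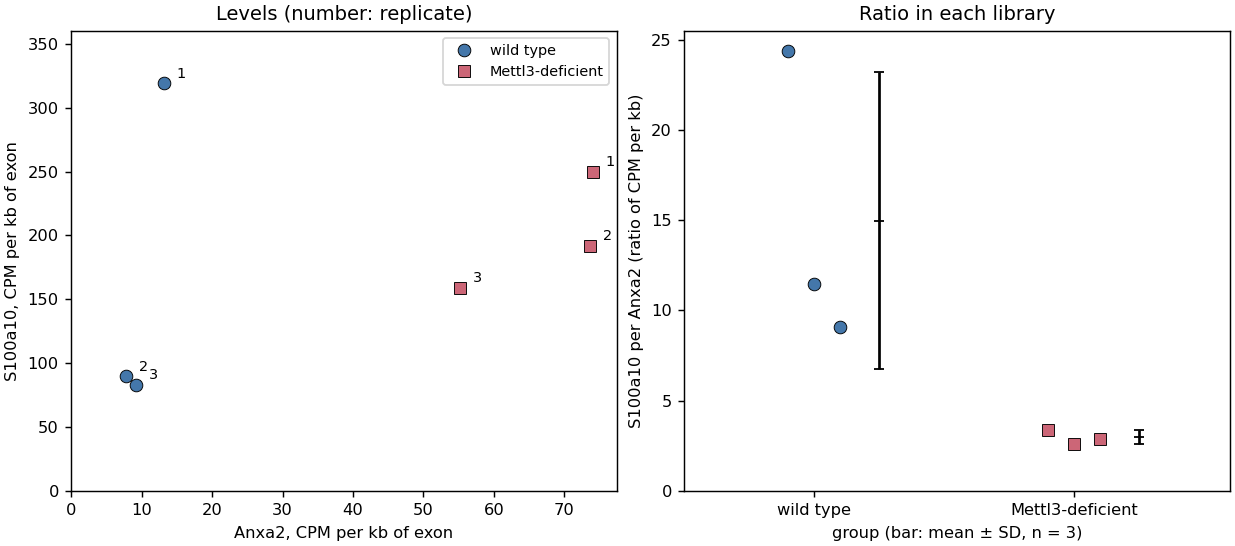
Left, CPM per kilobase of exon of S100a10 against Anxa2 in each library (numbers are replicates); right, the ratio of S100a10 to Anxa2 in each library, with bars for the mean ± SD of 3. The Mettl3-deficient libraries lie to the right in Anxa2 with ratios from 2.60 to 3.38, below the lowest wild-type ratio of 9.08.

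Around this pair, genes of surface plasminogen activation were described from a list of 10 partners, all tested, of which 4 rose and 0 fell. Without wild type replicate 3, 2 rose, and 10.4% of all genes tested were called in either direction. With all 6 libraries, 13.3% of all genes tested were called higher and 10.5% lower, shares to set beside each list below. Of the 4 that rose, 3 are given here. The tissue plasminogen activator gene Plat rose from 0.974 ± 0.597 to 6.90 ± 2.98 CPM (SD of 3 livers; edgeR adjusted p = 0.0127), and the call held whichever library was left out. Plaur, the urokinase receptor, rose from 0.347 ± 0.305 to 4.08 ± 1.88 CPM (edgeR adjusted p = 0.0133, and 0.0504 without wild type replicate 3). It held 19, 2 and 8 counts in wild type and 215, 225 and 76 counts in the Mettl3-deficient libraries, so it passed the filter on low counts only through the group where it was higher. Src, a kinase that phosphorylates annexin A2, rose from 4.73 ± 1.96 to 19.8 ± 5.37 CPM (edgeR adjusted p = 0.0088). Plg, the plasminogen gene, had means of 3068 and 1705 CPM and Ahnak, a scaffold bound by S100A10, means of 27.6 and 39.8 CPM, neither called (edgeR adjusted p = 0.0754 and 0.0952). Ahnak was called without wild type replicate 1 and with library size alone, and Plg with DESeq2.

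S100a11 (Entrez 20195, chromosome 3, 93520496 to 93526288), the neighbour of S100a10 on chromosome 3, encodes the calcium-dependent partner of annexin A1. Its level was 10.2, 4.99 and 5.99 CPM in wild type and 30.7, 25.8 and 23.3 CPM in the Mettl3-deficient libraries. The groups were well separated. The log2 fold change was 1.92 ± 0.28 (SE), 3.77-fold, and its call held in all 16 alternatives, from 1.72 to 2.38.

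Anxa1 (Entrez 16952, chromosome 19, 20373434 to 20390671), a glucocorticoid-inducible gene whose product restrains inflammation through formyl peptide receptors, did not follow S100a11. It stood at 11.3, 4.63 and 3.77 CPM in wild type and at 5.19, 5.87 and 6.33 CPM in the Mettl3-deficient libraries. The Mettl3-deficient values all lay between those of wild type replicate 1 and the other wild-type libraries. The log2 fold change was -0.18 ± 0.41 (SE), not called, and it turned to 0.46 without wild type replicate 1 and to 0.28 when libraries were scaled by library size alone, without TMM factors. Per kilobase, S100a11 was 3.33, 3.99 and 5.88 times Anxa1 in wild type and 21.9, 16.3 and 13.6 times in Mettl3-deficient libraries, with no overlap.

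Of 5 listed annexin A1 receptors and effectors, 4 were tested, 0 rose and 1 fell. The gene that fell was Nr3c1, the glucocorticoid receptor, from 103.5 ± 3.34 to 46.2 ± 3.34 CPM (SD, n = 3; log2 fold change -1.16, edgeR adjusted p = 0.00283), and it was called in each fit without 1 library. The formyl peptide receptors Fpr1 and Fpr2 had log2 fold changes of 0.27 and 0.42, and Pla2g4a, the phospholipase long linked to annexin A1, one of 0.28, none called (edgeR adjusted p = 0.792, 0.604 and 0.676). Fpr3 had 0 counts in every library.

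Anxa5 (Entrez 11747, chromosome 3, 36448923 to 36475887), the annexin used as a stain for dying cells because it binds exposed phosphatidylserine, had the second largest fold change of the 8 annexins and the largest difference in CPM per kilobase of exon. It stood at 49.0, 52.0 and 48.8 CPM in wild type and at 165, 220.1 and 132 CPM in the Mettl3-deficient libraries. The wild-type values were tight and the Mettl3-deficient ones spread over a wider range, all above. The log2 fold change was 1.79 ± 0.22 (SE), 3.45-fold, called in all 16 alternatives.

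Anxa3 (Entrez 11745, chromosome 5, 96793385 to 96845968), an annexin best known from neutrophils, was scarce. It was 5.33, 5.52 and 4.92 CPM in wild type and 11.7, 9.32 and 11.2 CPM in the Mettl3-deficient libraries, with no overlap. The log2 fold change was 1.03 ± 0.20 (SE), 2.05-fold, and its call was lost in 1 of 16 alternatives, without Mettl3-deficient replicate 1 (log2 fold change 0.97).

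Anxa4 (Entrez 11746, chromosome 6, 86736840 to 86793634), an annexin of secretory epithelia, was 56.3, 53.2 and 50.8 CPM in wild type and 65.5, 71.8 and 70.2 CPM in the Mettl3-deficient libraries. The groups did not overlap, but the log2 fold change of 0.37 ± 0.13 (SE) was not called except with library size alone. Anxa6 (Entrez 11749, chromosome 11, 54978953 to 55033471), the largest annexin and a regulator of cholesterol in late endosomes, was 129, 176.5 and 190.7 CPM in wild type and 151, 176.0 and 159 CPM in the Mettl3-deficient libraries. The values of the genotypes were intermingled, and the log2 fold change of -0.03 ± 0.20 (SE) changed sign in 6 of the 16 alternatives.

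Anxa7 and Anxa11 carry long N-terminal tails that bind the penta-EF-hand proteins ALG-2 (gene Pdcd6) and sorcin (gene Sri). Anxa7 (Entrez 11750, chromosome 14, 20455261 to 20480133) was 81.3, 70.1 and 83.3 CPM in wild type and 123.1, 109 and 99.4 CPM in the Mettl3-deficient libraries. The groups did not overlap, the log2 fold change was 0.50 ± 0.16 (SE), and it was not called here but was called in 4 alternatives (0.53 with upper-quartile factors, 0.97 with library size alone, 0.48 with DESeq2 and 0.57 without Mettl3-deficient replicate 3). Anxa11 (Entrez 11744, chromosome 14, 25842127 to 25886804) was 9.55, 12.5 and 14.6 CPM in wild type and 9.88, 10.3 and 10.03 CPM in the Mettl3-deficient libraries. It overlapped between the groups, with a log2 fold change of -0.27 ± 0.20 (SE) that was 0.21 with library size alone.

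Of 16 penta-EF-hand and membrane repair genes, all tested, 1 rose and 0 fell. Pef1, a penta-EF-hand partner of ALG-2, rose from 37.7 ± 1.16 to 52.0 ± 5.89 CPM (SD of 3 livers; edgeR adjusted p = 0.0486), a call lost in 9 of 16 alternatives with an edgeR adjusted p of up to 0.178. Among the fits that drop a library it was kept only without Mettl3-deficient replicate 2. The next by p were Capn2, a calpain protease, from 51.3 to 88.6 CPM, the ferlin gene Myof from 3.91 to 7.49 CPM and the caveolin gene Cav1 from 6.34 to 2.32 CPM, none called (edgeR adjusted p = 0.0506, 0.0517 and 0.0578). Of the 16 alternatives Capn2 was called in 8, Myof in 4 and Cav1 in 2. Pdcd6 and Sri had log2 fold changes of -0.22 and 0.38, not called (edgeR adjusted p = 0.343 and 0.2). Without wild type replicate 1, where 23.8% of all genes tested were called, Capn2, Myof and Sri were called. Sri was also called with library size alone.

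Of 9 listed genes for other phosphatidylserine binders and lipid scramblases, 7 were tested, 2 rose and 0 fell. Mfge8, a secreted bridge between exposed phosphatidylserine and phagocytes, rose from 23.7 ± 8.01 to 108 ± 15.6 CPM (SD, n = 3; log2 fold change 2.20, edgeR adjusted p = 0.00314), with the call kept in each fit without 1 library. The copine gene Cpne8 rose from 3.17 ± 1.06 to 11.9 ± 5.44 CPM (edgeR adjusted p = 0.0146, and 0.0524 without wild type replicate 2). The copine genes Cpne3 and Cpne2 had log2 fold changes of -0.46 and -0.58 and were not called (edgeR adjusted p = 0.0509 and 0.0928). Of the 16 alternatives Cpne3 was called in 4 (RLE factors, DESeq2, the CPM filter and the Y-linked covariate) and Cpne2 in 0.

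Per kilobase of exon, the scale on which levels of different genes can be set side by side, the order of the 10 genes differed between the genotypes. In wild type the order was S100a10 (164 CPM per kb), Anxa6 (66.5), Anxa5 (28.9), Anxa7 (25.8), Anxa4 (25.4), S100a11 (13.8), Anxa2 (10.02), Anxa11 (4.48), Anxa1 (3.47) and Anxa3 (1.997). The ranges of Anxa7 and Anxa4, of S100a11 and Anxa2, of Anxa11 and Anxa1, and of Anxa1 and Anxa3 overlapped. In Mettl3-deficient livers Anxa5 (99.5 CPM per kb) and Anxa2 (67.7) followed S100a10 (200.4), and Anxa2 overlapped Anxa6 (65.1) in range.

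The summed level of the 8 annexins per kilobase of exon was 158, 166 and 175 CPM per kb in the wild-type libraries and 313, 352 and 273 CPM per kb in the Mettl3-deficient ones. The mean was 1.88 times as high in Mettl3-deficient livers, and Anxa2 and Anxa5 together made up 87.9% of the difference. The share of Anxa2 in this sum was 6.07% ± 1.92 in wild type and 21.6% ± 1.83 in Mettl3-deficient livers (SD, n = 3), and that of Anxa5 17.4% ± 1.06 and 31.5% ± 4.18. The share of Anxa6 was 39.7% ± 6.09 in wild type and 20.97% ± 2.12 in Mettl3-deficient livers, beside its log2 fold change of -0.03.

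**Figure D3:**
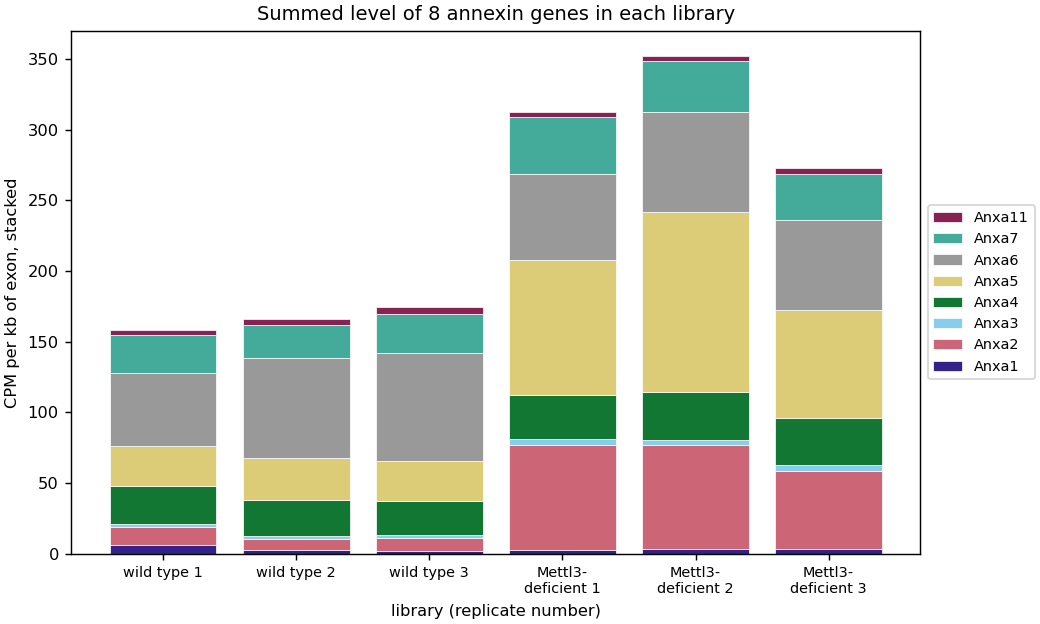
Stacked bars of the CPM per kilobase of exon of the 8 annexin genes in each of the 6 libraries, from 0. The segments of Anxa2 and Anxa5 are larger in each Mettl3-deficient library, and the bar totals run from 158 to 175 in wild type and from 273 to 352 in Mettl3-deficient livers.

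A further 19 listed annexin and S100 genes were tested where counts allowed. The filter kept 11 of them, of which 5 rose and 1 fell. Leaving out wild type replicate 2 left 1 call, and leaving out wild type replicate 3 left 2, where 9.64% and 10.4% of all genes tested were called. The number was 2 if Mettl3-deficient replicate 1 was dropped and 3 if Mettl3-deficient replicate 2 was dropped, with 9.41% and 12.7% of all genes tested called. Anxa8, an annexin of squamous epithelia, held 17, 14 and 4 counts in wild type and 105, 493 and 64 counts in the Mettl3-deficient libraries (log2 fold change 3.59, edgeR adjusted p = 0.0231). Mettl3-deficient replicate 2 held most of it, and without that library the log2 fold change was 2.33 with an edgeR adjusted p of 0.0537. It was 0.0751 and 0.07 without wild type replicate 2 and 3, and limma-voom gave an adjusted p of 0.0899. Anxa13, an annexin of epithelial apical membranes, rose from 1.45 ± 0.487 to 4.76 ± 2.80 CPM (SD of 3 livers; edgeR adjusted p = 0.0453). That call was lost in 8 of 16 alternatives, with adjusted p-values up to 0.128: in 5 of the 6 fits that drop a library (all but the one without Mettl3-deficient replicate 2), with limma-voom (0.106), with the replicate block (0.0925) and with the Y-linked covariate (0.0555). Anxa9 had means of 1.61 and 3.08 CPM and was not called (edgeR adjusted p = 0.0762) except with library size alone and with DESeq2. Anxa10 had 0 counts in every library.

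Among the S100 genes, S100g, which encodes the calcium buffer calbindin-D9k, held 0, 0 and 2 counts in wild type and 66, 63 and 90 counts in the Mettl3-deficient libraries (edgeR adjusted p = 0.00465). Its span lies within that of Ctps2, and the sources used here do not give the strand setting of the counting. S100a9, a calprotectin subunit of neutrophils and monocytes, rose from 0.553 ± 0.165 to 2.40 ± 0.977 CPM (SD of 3 livers; edgeR adjusted p = 0.018), whereas its partner S100a8 was 0.730 and 1.23 CPM and not called (edgeR adjusted p = 0.343). The call of S100a9 was lost on dropping wild type replicate 2, or either of Mettl3-deficient replicates 1 and 2, with an edgeR adjusted p of up to 0.0742. S100a4, a gene of fibroblasts and macrophages, rose from 0.310 ± 0.162 to 1.13 ± 0.125 CPM (edgeR adjusted p = 0.0326, and still called only with wild type replicate 1 left out among the 6 fits that drop a library, with values up to 0.11, and 0.065 with the replicate block). S100a13, which takes part in non-classical secretion, fell from 31.4 ± 4.87 to 15.99 ± 3.21 CPM (edgeR adjusted p = 0.0149). That call was lost with library size alone and on dropping either wild type replicate 2 or 3, or else Mettl3-deficient replicate 1 (edgeR adjusted p of at most 0.0592 over all alternatives).

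S100a1, best known from heart muscle, had means of 113 and 81.4 CPM and was not called (edgeR adjusted p = 0.0657) except with DESeq2 and with the Y-linked covariate. Its span overlaps that of S100a13 by 98 bases. S100a16 had means of 27.5 and 25.1 CPM and S100a6, a partner of annexin A11, means of 2.61 and 3.62 CPM, neither called (edgeR adjusted p = 0.542 and 0.506). S100a3, S100a14 and S100b had 0 to 6 counts per library, and S100a5, S100a7a, S100a7l2 and S100z had 0. S100a2, which was not on the list, also had 0 counts. Of the 5 genes that rose, S100g, S100a4 and Anxa8 had under 10 counts in at least 1 wild-type library, so they passed the filter through the Mettl3-deficient libraries.

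**Figure D4:**
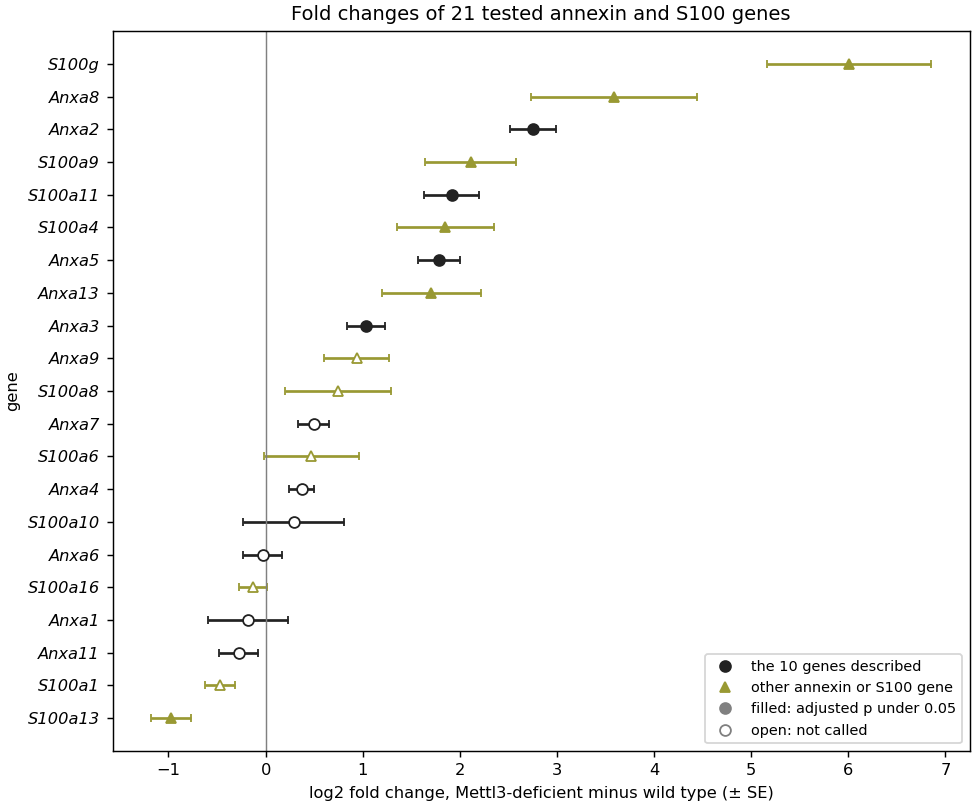
Log2 fold change (Mettl3-deficient minus wild type) with its SE for the 10 genes (circles) and the 11 other tested annexin and S100 genes (triangles), filled where the adjusted p was under 0.05. Anxa2 leads the 10 genes, S100a10 has the widest error among them, and the value of S100g rests on 2 wild-type counts and so on the prior count of the fit.

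Genes with the pattern most like that of Anxa2 were sought among 9725 genes by the root mean square distance of their log2 CPM, centred on the wild-type mean, over the 6 libraries. For Anxa2 these were the tetraspanin gene Cd9 (distance 0.24 on the log2 scale), the DNA replication nuclease gene Fen1 (0.25), Clip2 (0.29), Npdc1 (0.33) and the endosomal trafficking gene Ehd4 (0.36). Cd9 stood at 19.6, 10.9 and 10.3 CPM in wild type and at 76.7, 78.8 and 80.8 CPM in the Mettl3-deficient libraries, with wild type replicate 1 highest of its group as for Anxa2. For S100a10 the nearest were Primpol, Ddx60, Nhsl1, Fzd5 and Zfp518a, at distances of 0.19 to 0.26. Each of these 5 had its highest value in wild type replicate 1, and none was called. Likeness here was chosen from the same libraries and carries no test.

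GGACT, a common form of the sequence that Mettl3 methylates, was counted in 1 GENCODE transcript per gene. Anxa2 held 3 matches in 1447 bases (2.07 per kb) and Anxa3 3 in 1595 bases (1.88 per kb), beside a median of 1.06 per kb over 13135 tested genes. S100a11 and Anxa5 held 0, and S100a10 held 1 in 685 bases. The 4 called genes therefore had both the highest and the lowest densities of the 10. Methylation was not measured in these libraries, and a match is not a methylated site.

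Marker genes of liver cell types were measured beside these values, and most of their calls were lost on dropping 1 library or another. Of all genes tested, 9.64% were called on dropping wild-type library 2 and 10.4% on dropping wild-type library 3. Dropping Mettl3-deficient library 1 or 2 gave 9.41% and 12.7%. The share was 23.8% with all 6 libraries or with wild-type library 1 dropped, and 23.6% with Mettl3-deficient library 3 dropped. These shares are to be set beside each marker list here and below. Hepatocyte markers had 0 higher and 3 lower of 7 tested (1 of the 8 symbols listed was not matched), with a summed level of 135200 to 171400 CPM in wild type and 44130 to 74300 CPM in Mettl3-deficient libraries. The number lower dropped to 0 if any one of wild-type libraries 2 and 3 or Mettl3-deficient library 1 was left out, and to 1 if Mettl3-deficient library 2 was. It was 1 when scaled by library size alone and 6 with DESeq2, beside 37.6% and 31.8% of all genes tested. The albumin gene Alb made up most of the sum in every library. Of the defining genes, Alb had means of 129600 and 44710 CPM and fell (edgeR adjusted p = 0.0172), and the transthyretin gene Ttr had means of 6774 and 3783 CPM and was not called.

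Of 10 neutrophil and monocyte markers 5 were tested and all 5 rose, with sums of 49.5 to 56.2 CPM in wild type and 80.5 to 106.5 CPM in Mettl3-deficient livers. Lyz2 alone made up most of these sums, with 43.7 to 50.8 CPM in wild type and 63.7 to 90.3 CPM in Mettl3-deficient livers. The chemokine receptor gene Ccr2, with means of 2.07 and 5.66 CPM, and the integrin gene Itgam were called in each fit without 1 library. The other three (Csf3r, Ly6c2 and Lyz2) were called in 0, 2 and 3 of these 6 fits, and the number of this list called dropped to 2 if any one of wild-type libraries 2 and 3 or Mettl3-deficient library 2 was left out, and to 3 if Mettl3-deficient library 1 was. Of the markers that were not tested, the neutrophil marker Ly6g had 0 counts in every library. The neutrophil elastase gene Elane had 12, 2 and 12 counts in wild type and 3, 0 and 0 in the Mettl3-deficient libraries. In the same order, Cxcr2 had 2, 2 and 8 against 22, 16 and 7 counts. Retnlg had 6, 0 and 2 against 14, 6 and 2, and Mpo 0, 0 and 8 against 6, 0 and 0.

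Of 10 macrophage markers 1 rose, Cd68, a call kept in 2 of the 6 fits without 1 library. The defining genes Adgre1 (means of 11.3 and 21.6 CPM) and Clec4f (109 and 140.5 CPM) were not called. The sums were 132, 406 and 476 CPM in wild type and 469, 783 and 419 CPM in Mettl3-deficient libraries, so wild type replicate 1 was lowest where S100a10, Anxa1 and Anxa2 were highest within their group.

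Cholangiocyte markers had 2 higher (Sox9 and Cldn7) and 0 lower of 8 tested, with sums of 107 to 127 CPM in wild type and 93.3 to 253 CPM in Mettl3-deficient livers. Spp1 alone made up most of the sum in every library, with 59.4, 88.3 and 98.2 CPM in wild type and 121, 51.3 and 181 CPM in Mettl3-deficient livers. The number called dropped to 0 if wild-type library 3 or either of Mettl3-deficient libraries 1 and 3 was left out, and to 1 if either of wild-type libraries 1 and 2 was. The defining genes Krt19 (means of 4.23 and 6.10 CPM) and Epcam (2.60 and 7.97 CPM) were not called. Mesothelial markers had 4 lower of 6 (sums of 11.1 to 32.7 and 5.76 to 10.5 CPM), among them the defining genes Msln (means of 7.69 and 1.85 CPM) and Upk3b (6.82 and 1.68 CPM). That number dropped to 0 if Mettl3-deficient library 1 was left out, to 1 if library 2 of either genotype was, and to 2 if wild-type library 1 was.

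Stellate cell and fibroblast markers had 1 higher of 10 (414 to 473 and 360 to 703 CPM), Rgs5, which was called in 0 of the 6 fits without 1 library. Endothelial markers had 1 lower of 10 (201 to 333 and 207 to 251 CPM), and lymphocyte markers 1 higher and 1 lower of 10 (11.9 to 13.7 and 16.3 to 23.4 CPM). The lymphocyte gene that was higher was Ptprc (means of 7.67 and 13.75 CPM), which alone made up most of the lymphocyte sum in every library. Cd4 (means of 1.96 and 0.525 CPM) was the lower one. The endothelial number was 0 if Mettl3-deficient library 1 or wild-type library 3 was left out and 3 if wild-type library 1 was. The lymphocyte number of 2 dropped to 0 if wild-type library 1 or either of Mettl3-deficient libraries 1 and 2 was left out, and to 1 if any of the others was. The defining genes of these lists, Lrat (22.8 and 25.6 CPM) and Col1a1 (22.7 and 42.96 CPM), Stab2 (52.6 and 38.6 CPM) and Pecam1 (13.6 and 14.6 CPM), and Cd3e (0.264 and 0.680 CPM) and Cd79a (0.786 and 0.742 CPM), were not called. The part of these cell types in the annexin and S100 values was not tested.

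**Figure D5:**
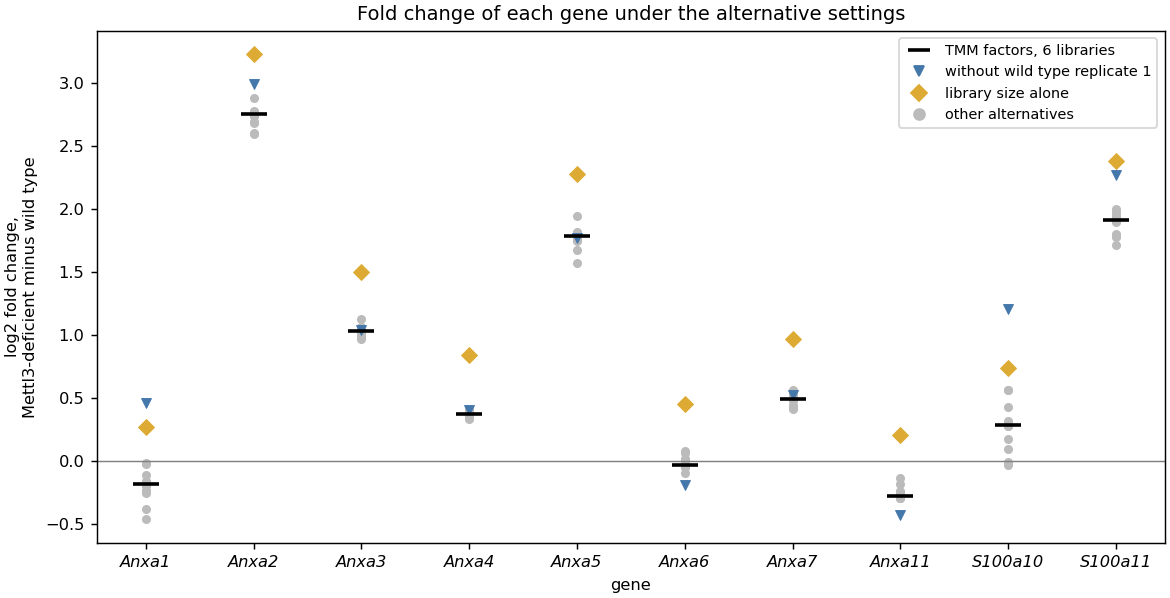
Log2 fold change of each of the 10 genes in the analysis reported (bar), without wild type replicate 1 (triangle), with library size alone (diamond) and in the other alternatives (grey points). Anxa2 stays between 2.60 and 3.23, while S100a10 moves from 0.29 to 1.21 without wild type replicate 1.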

How the data were processed

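The files hold raw counts per gene under Entrez identifiers, deposited by the authors with no normalization, 1 file per liver. Reads were aligned with HISAT2 to mm10 and counted with featureCounts, per the submitters' processing notes; the sources used here do not give versions, annotation or strand setting. Per the labels' protocols, total RNA was depleted of ribosomal RNA and made into directional libraries. Symbols and positions came from RefSeq GRCm38.p6 (25275 of 27179 identifiers matched), exon lengths and transcripts from GENCODE, as the exon union of protein-coding transcripts in the basic set.

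Groups and replicate numbers came from the sample titles. Counts were tested with the robust quasi-likelihood F test of edgeR 4.0.16 (R 4.3.3), two-sided, with TMM factors, the group as the only term and filterByExpr (minimum count 10, minimum total 15), which kept 14380 genes. Adjusted p-values are Benjamini-Hochberg values over all of them, and a gene was called under 0.05. Each SE is the absolute log2 fold change divided by the square root of F. Alternatives were RLE and upper-quartile factors, library size alone, DESeq2 1.42.0, limma-voom (limma 3.58.1), other filters, a replicate block, a covariate for Y-linked transcripts, omission of the 20 genes with most counts, and leaving out each library.

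The members and the gene lists were chosen with earlier results of these data known. Named genes are all members, every other annexin and S100 gene with a count, up to 4 genes of each partner list by p, the defining cell type markers and the 5 nearest patterns of Anxa2 and S100a10 (mean of at least 5 CPM). Other genes named (Pdcd6, Sri, Plg, Ahnak, S100a2 and the markers that are not defining) were added after their values were seen. The values of 1 gene of a partner list are not reported here.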

Additional observations from a re-analysis of the deposited data

How the results depend on the processing

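Over the 10 genes and 16 alternatives, 142 of 160 fold changes kept their direction and their side of the threshold, 6 gained a call, 1 lost it and 11 changed sign, all of the last among Anxa1, Anxa6, Anxa11 and S100a10, which were not called. Scaling by library size alone shifted the median over all genes from 0.01 to 0.49 (log2) and the share of calls that were higher from 55.7% to 89.0%. With it Anxa1, Anxa6 and Anxa11 turned to 0.28, 0.45 and 0.21. Anxa6 also turned to 0.005 with upper-quartile factors, and to 0.066 with the Y-linked covariate, and ran from -0.184 to 0.081 when 1 library was left out (0.018 without wild type replicate 2, 0.017 without Mettl3-deficient replicate 1). Anxa1 ran from -0.461 to 0.461 when 1 library was left out, the highest without wild type replicate 1. S100a10 ran from -0.031 (without wild type replicate 3) to 1.212 (without wild type replicate 1), with -0.006 if wild type replicate 2 was dropped. The cause was not tested.

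Over all genes tested, 9.41% to 23.8% were called when 1 library was left out, 37.6% with library size alone and 31.8% with DESeq2, against 23.8%. Beside these shares, the number of the 10 genes called was 3 to 5 when 1 library was left out and 6 with library size alone. For the other annexin and S100 genes it was 1 to 5 without 1 library, against 6, and for the partner and membrane repair genes 5 to 10, against 8. The latter was 18 with library size alone (17 higher) and 13 with DESeq2.

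No pairing by replicate number was seen: deviations of same-numbered libraries correlated at 0.084, -0.017 and 0.034 across 14380 genes. Libraries of unlike number correlated at -0.101 to 0.04. With 3 libraries a group, such correlations cannot exclude a pairing. With the replicate block, 4 of the 10 genes, 4 of the other annexin and S100 genes and 7 partner genes were called, and 2683 genes in all against 3420. With 3 livers a group, an exact permutation test of a single value cannot go below p = 0.1, and genes under 20 counts per library are limited by depth.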
